A study of Homo sapiens with 24 samples.

Results

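Among the 14232 genes measured on exon arrays of 2 B cell precursor acute lymphoblastic leukemia lines, 8 were taken as restricted to MUTZ-5: ITGA8, CYP26A1, GJB6, CHI3L2, GABRG3, ALKAL2, FYB1 and SYCP2. They were chosen by measured values of these arrays, namely a high signal in MUTZ-5 under DMSO, a low one in MHH-CALL4, and the response to JQ1 in MUTZ-5. All 12 arrays thus bear on the choice, so the values of these genes are given as a description with no test, also for JQ1 in MHH-CALL4. Tests are given for other genes, namely their partners, pathways and chromosome neighbours. Each gene is read from 1 transcript cluster (a set of exon probes summarised together) whose annotation names that gene alone.

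The 4 groups were MUTZ-5 with JQ1, MUTZ-5 with DMSO, MHH-CALL4 with JQ1 and MHH-CALL4 with DMSO, each with 3 arrays. JQ1 is an inhibitor that displaces BET bromodomain proteins from acetylated histones, and it was given at 500 nM for 8 hours. DMSO is the solvent, given for the same time. Both are established human cell lines, and each comes from 1 leukemia, so a difference between them is one between these lines and not between patient groups. Whether the 3 samples in each group came from separate cultures is not stated in the labels, so the spread behind each p-value is that of these samples and may be technical.

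Values are RMA log2 signals, and a difference of 1 is 2-fold. Each array's median over the genes used lay between 8.46 and 8.57, and the number of arrays limits the precision. As a treatment check, HEXIM1, a gene that BET inhibitors are known to induce, rose by 1.51 log2 in MUTZ-5 and by 1.76 log2 in MHH-CALL4 (limma adjusted p = 6.3e-08 and 1.1e-08). Of 10 B lineage markers 9 lay above the median of all genes in all 4 groups, including the B cell receptor chain CD79A, the transcription factors PAX5 and EBF1 and the terminal transferase DNTT. CD79A, for example, averaged 12.31 log2 in MUTZ-5 and 12.82 in MHH-CALL4 under DMSO. Between lines under DMSO 2 of the 10 were higher in MUTZ-5 and 4 lower at a limma adjusted p under 0.05 (list median -0.15 log2). Among all genes 11.9% were higher and 11.5% lower. With JQ1 2 of the 10 rose and 4 fell in MUTZ-5, beside 9.06% and 13.0% of all genes. In MHH-CALL4 0 rose and 4 fell, beside 11.0% and 17.5%. Along the main axis of variation within groups, replicate 3 of MUTZ-5 DMSO stood apart at a score of 18.2 and replicate 3 of MHH-CALL4 JQ1 at -15.5, with the other 10 arrays between -10.8 and 10.9.

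These genes belong to systems best known outside the B lineage. Integrin alpha-8, encoded by ITGA8, pairs with the beta-1 chain to bind matrix proteins such as nephronectin and is known from the developing kidney. CYP26A1 is a cytochrome P450 that clears retinoic acid and is itself induced by it. GJB6 encodes a connexin, a gap junction channel protein of the inner ear and skin, and GABRG3 a subunit of the GABA-A receptor, a chloride channel of neurons. ALKAL2 is a secreted ligand of the receptor kinases ALK and LTK. CHI3L2 is a secreted chitinase-like protein without chitinase activity. FYB1 is an adaptor that links the T cell and platelet signalling scaffold LCP2 to integrin activation. SYCP2 is a protein of the chromosome axis in meiosis.

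The sequences around the start sites, from 250 bases before to 50 after (RefSeq, GRCh38.p14), were examined because the 8 genes shared a cell line but not a response. All 8 genes matched, with 11 windows in all, and both strands were searched. CYP26A1 is shown first because its window at chr10:93073643-93073942 (plus strand) holds a direct repeat of a hexamer with 5 bases between the copies, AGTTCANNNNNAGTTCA, the type of element that retinoic acid receptors are known to bind. The repeat begins 90 bases before the start and is in capitals. It occurs in 4 of 35116 windows (0.011%), while its variant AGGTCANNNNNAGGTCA occurs in 2 windows and in none of these genes. A TATAAA is also present in this window and in 11.5% of all windows.
CYP26A1: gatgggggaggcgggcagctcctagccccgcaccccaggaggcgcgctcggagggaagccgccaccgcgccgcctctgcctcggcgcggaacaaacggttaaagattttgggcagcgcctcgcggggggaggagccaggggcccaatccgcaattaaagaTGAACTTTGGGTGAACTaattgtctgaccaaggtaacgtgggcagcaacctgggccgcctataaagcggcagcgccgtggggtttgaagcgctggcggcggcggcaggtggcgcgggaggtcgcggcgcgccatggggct

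CHI3L2 is shown for a palindrome of the type that STAT factors are known to bind, TTCNNNGAA, in capitals, in its window at chr1:111227409-111227708 (plus strand). It begins 62 bases before that start, and 7.66% of all windows hold one. The second CHI3L2 window overlaps the first and holds the same copy. Other motifs were searched and found too. CACGTG occurs 2 times in the CYP26A1 window at chr10:93073225-93073524, and 7.26% of all windows hold one. TGTGGT occurs in 1 FYB1 window and in 13.1% of all windows. GGAAGT occurs in CHI3L2 and FYB1 and in 22.8% of all windows.
CHI3L2: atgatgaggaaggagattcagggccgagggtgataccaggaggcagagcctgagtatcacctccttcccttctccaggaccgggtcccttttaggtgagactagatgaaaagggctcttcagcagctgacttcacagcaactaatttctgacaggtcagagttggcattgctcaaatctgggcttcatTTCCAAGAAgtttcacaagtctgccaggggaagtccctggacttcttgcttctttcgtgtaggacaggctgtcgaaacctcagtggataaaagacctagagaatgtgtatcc

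The windows also differed in base composition. SYCP2 (chr20:59933588-59933887, minus strand) and GJB6 (chr13:20230929-20231228, minus strand) are shown as examples from either end, with each CG in capitals. SYCP2 has 41 CG pairs and GJB6 has 2. The ratio of observed to expected CG was 0.974 in SYCP2 and 0.102 in GJB6, beside a median of 0.579 over all windows. ALKAL2 (1.09) and the CYP26A1 window printed above (0.957) lay with SYCP2, while the other CYP26A1 window (chr10:93073225-93073524, plus strand) had 0.440, below the median. ITGA8 (0.752) and GABRG3 (0.75) lay between, and the CHI3L2 windows (0.217 and 0.167) and FYB1 windows (0.184 and 0.104) lay with GJB6. These matches and ratios describe the reference sequence, and neither binding nor methylation was measured.
SYCP2: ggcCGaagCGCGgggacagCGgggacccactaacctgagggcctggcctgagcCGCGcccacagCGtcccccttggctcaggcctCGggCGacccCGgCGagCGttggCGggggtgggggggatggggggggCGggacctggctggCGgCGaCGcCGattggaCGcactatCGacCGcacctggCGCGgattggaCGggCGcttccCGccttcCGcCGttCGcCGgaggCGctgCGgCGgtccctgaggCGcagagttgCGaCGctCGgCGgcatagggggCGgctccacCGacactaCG
GJB6: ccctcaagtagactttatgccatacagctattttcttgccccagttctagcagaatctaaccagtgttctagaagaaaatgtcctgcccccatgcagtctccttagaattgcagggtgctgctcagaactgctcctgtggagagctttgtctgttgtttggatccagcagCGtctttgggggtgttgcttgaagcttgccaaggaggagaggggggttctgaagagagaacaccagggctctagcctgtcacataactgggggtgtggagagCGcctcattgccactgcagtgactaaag

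**Figure D1:**
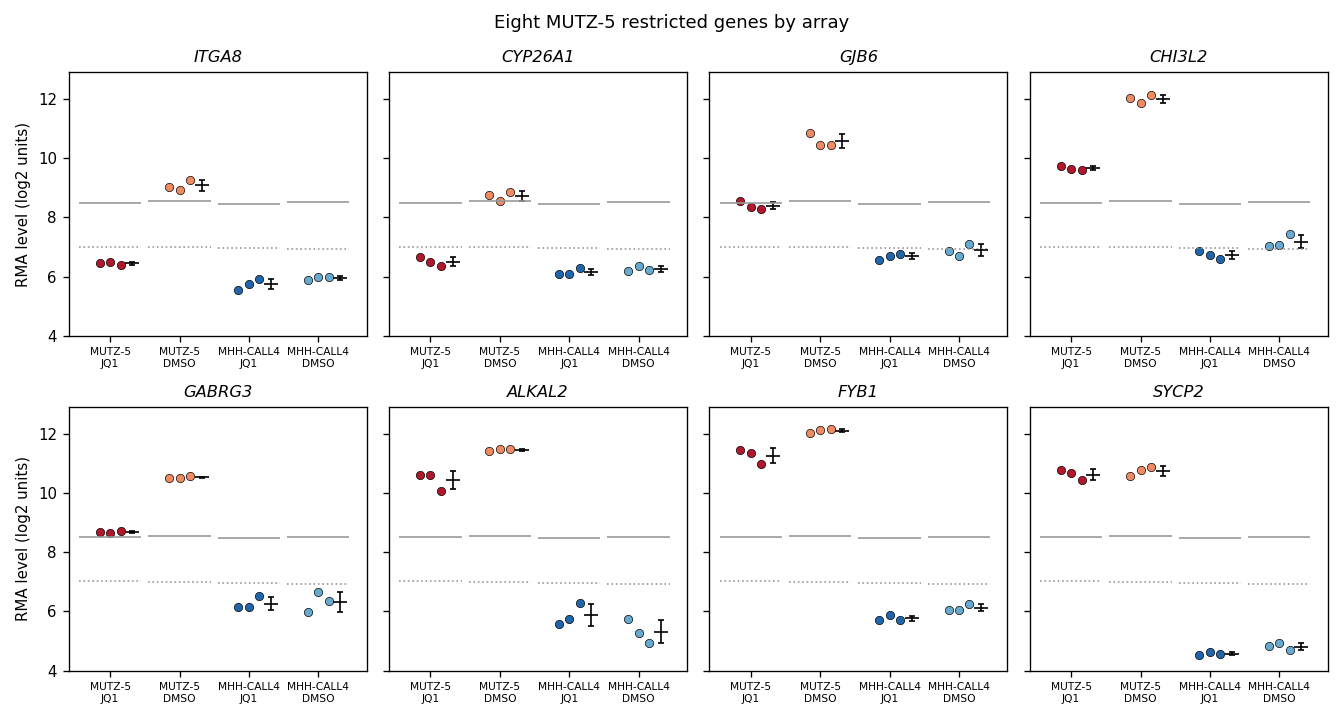
RMA level (log2 units, y axis) of the 8 genes in each of the 12 arrays, by group on the x axis. Points are arrays, the tick with bars is the mean ± SD of 3 arrays, the solid line is the group's median of all genes and the dotted line its 25th percentile. The MUTZ-5 DMSO points lie above all MHH-CALL4 points in each panel, and the gap between MUTZ-5 JQ1 and MUTZ-5 DMSO points runs from wide in ITGA8 to none in SYCP2.

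In MUTZ-5, 5 of the genes were lower under JQ1 than under DMSO by 3.60-fold to 6.21-fold, ALKAL2 and FYB1 by 2.04-fold and 1.80-fold, and SYCP2 by 1.09-fold. ITGA8 had the widest gap. It measured 6.46, 6.49 and 6.39 in MUTZ-5 with JQ1, against 9.04, 8.93 and 9.27 in MUTZ-5 with DMSO. All 3 JQ1 values lay below all 3 DMSO values, and the difference of -2.63 log2 (6.21-fold lower) was the second largest decrease of all genes. MHH-CALL4 measured 5.56, 5.75 and 5.90 with JQ1 and 5.87, 5.99 and 5.97 with DMSO, and the JQ1 values overlapped the DMSO values there. JQ1-treated MUTZ-5 thus still lay above every MHH-CALL4 array, by at least 0.40 log2.

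CYP26A1 gave 6.65, 6.50 and 6.34 in MUTZ-5 with JQ1, against 8.76, 8.55 and 8.86 with DMSO (-2.22 log2, 4.67-fold lower). In MHH-CALL4 it gave 6.10, 6.10 and 6.29 with JQ1 and 6.20, 6.36 and 6.21 with DMSO. It is the one gene of the 8 in which MUTZ-5 under JQ1 reached the MHH-CALL4 values. Its lowest MUTZ-5 JQ1 array lay 0.016 log2 below the highest MHH-CALL4 array, a DMSO array, but above all MHH-CALL4 JQ1 arrays. Under JQ1 ITGA8 lay above 17.9% and CYP26A1 above 18.5% of all genes in MUTZ-5, where array signals are known to flatten, so the size of their differences is not exact. Such a position is one on the array's signal scale, not an amount of transcript, since different clusters carry different probes. In a bulk sample, fewer cells with a transcript and less of it per cell cannot be told apart.

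GJB6 measured 8.55, 8.36 and 8.29 in MUTZ-5 with JQ1, against 10.86, 10.45 and 10.45 with DMSO (-2.19 log2, 4.56-fold lower). Its MHH-CALL4 values were 6.57, 6.70 and 6.78 with JQ1 and 6.87, 6.69 and 7.10 with DMSO. The MUTZ-5 JQ1 arrays therefore formed a middle level, well apart from those of both MUTZ-5 with DMSO and MHH-CALL4.

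CHI3L2 followed the same 3-step pattern at a higher signal. MUTZ-5 measured 9.74, 9.64 and 9.60 with JQ1, against 12.02, 11.87 and 12.13 with DMSO (-2.35 log2, 5.09-fold lower). MHH-CALL4 measured 6.86, 6.71 and 6.58 with JQ1, against 7.04, 7.07 and 7.43 with DMSO. This was the highest of the 8 genes' positions in MHH-CALL4 under DMSO, above 29.0% of all genes, so "near the floor" holds for it only loosely. With the extended probe set list the MUTZ-5 difference was -1.39 log2, from 8.70, 8.80 and 8.73 with JQ1 against 10.10, 10.13 and 10.16 with DMSO.

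GABRG3 was the most even within groups of MUTZ-5, with 8.68, 8.64 and 8.72 under JQ1, against 10.52, 10.51 and 10.56 under DMSO (-1.85 log2, 3.60-fold lower). In MHH-CALL4 its values scattered more, at 6.13, 6.14 and 6.51 with JQ1 and 5.97, 6.64 and 6.34 with DMSO. The range of its JQ1 values there lay inside that of its DMSO values.

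ALKAL2 and FYB1 had smaller gaps between JQ1 and DMSO. ALKAL2 measured 10.61, 10.62 and 10.07 in MUTZ-5 with JQ1, against 11.42, 11.48 and 11.48 with DMSO (-1.03 log2, 2.04-fold lower). The lowest of the JQ1 values was replicate 3, and without that array the difference was -0.85 log2. MHH-CALL4 measured 5.58, 5.75 and 6.29 with JQ1, against 5.74, 5.26 and 4.95 with DMSO, a spread of 1.35 log2 over the 6 arrays and the widest of the 8 genes. FYB1 measured 11.46, 11.34 and 10.99 in MUTZ-5 with JQ1, against 12.04, 12.13 and 12.16 with DMSO (-0.85 log2, 1.80-fold lower). Its MHH-CALL4 values were 5.69, 5.87 and 5.72 with JQ1, against 6.04, 6.06 and 6.25 with DMSO. In both genes the MUTZ-5 groups did not overlap, yet the JQ1 arrays stayed far above MHH-CALL4, by at least 3.78 log2 in ALKAL2 and 4.73 log2 in FYB1.

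SYCP2 hardly differed with treatment in MUTZ-5. It measured 10.77, 10.66 and 10.43 with JQ1, against 10.57, 10.79 and 10.88 with DMSO (-0.13 log2, 1.09-fold lower), and the groups overlapped. Leaving out single arrays moved this difference between -0.21 and -0.029. In MHH-CALL4 it measured 4.51, 4.61 and 4.56 with JQ1, against 4.81, 4.92 and 4.69 with DMSO, where it lay above 3.39% of all genes.

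The MUTZ-5 JQ1 and DMSO values did not overlap in 7 of the 8 genes and in 32.6% of all genes. Of the 8 genes, 6 were at least 2-fold lower, beside 1.23% of all genes, and the median difference was -2.02 log2 beside 0.0084 for all genes. These counts follow from the choice of the genes. In MUTZ-5 with JQ1 replicate 3 was the lowest of its group in 7 of the 8 genes, and in MUTZ-5 with DMSO replicate 3 was the highest in 6. In MHH-CALL4 with JQ1 replicate 1 was the lowest in 7. The part of these arrays' overall offset in the results was not tested, and none of the 8 MUTZ-5 differences changed sign when any single array was left out.

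**Figure D2:**
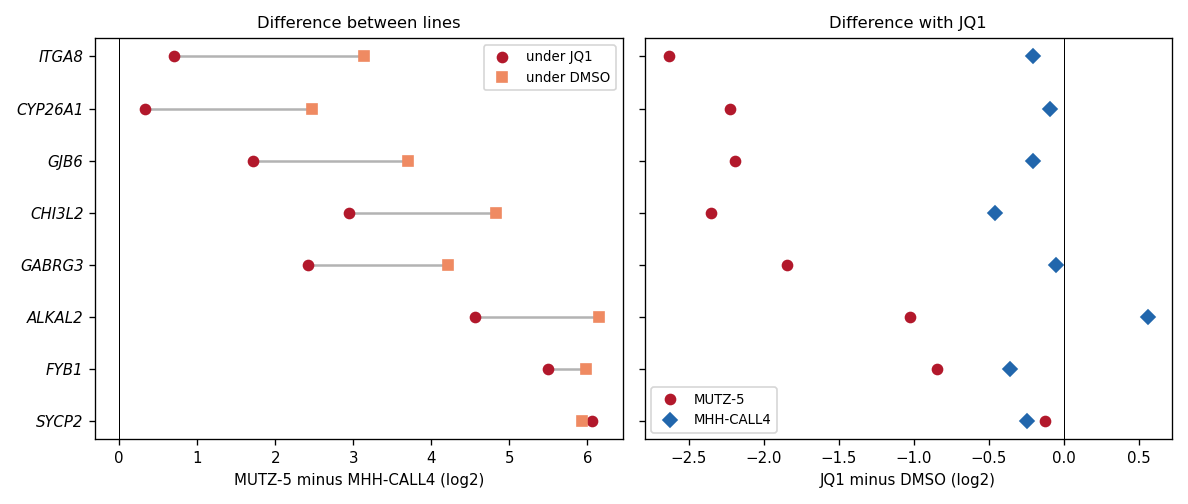
Left, the MUTZ-5 minus MHH-CALL4 difference (log2, x axis) of each gene under JQ1 (circles) and DMSO (squares). Right, the JQ1 minus DMSO difference (log2) in MUTZ-5 (circles) and MHH-CALL4 (diamonds). ITGA8 and CYP26A1 come closest to 0 between lines under JQ1, at 0.71 and 0.34, while SYCP2 stays at 6.06.

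The gap between the lines under JQ1 was set beside that under DMSO, and it also holds the JQ1 difference in MHH-CALL4. Under DMSO the MUTZ-5 minus MHH-CALL4 difference ran from 2.47 log2 in CYP26A1 to 6.14 log2 in ALKAL2, which with FYB1 (5.99) and SYCP2 (5.94) made up the 3 largest of all genes. Under JQ1 it was 0.34 log2 for CYP26A1 and 0.71 log2 for ITGA8, which is 13.7% and 22.5% of their log2 differences under DMSO. GJB6 kept 46.4% (1.72 log2), GABRG3 57.5% (2.42 log2) and CHI3L2 60.9% (2.94 log2). ALKAL2 kept 74.2% (4.56 log2), FYB1 91.8% (5.50 log2) and SYCP2 102.0% (6.06 log2). In MHH-CALL4 itself ALKAL2 differed by 0.56 log2 with JQ1 and SYCP2 by -0.24 log2, both at low signals. These percentages are those of the core list. Between lines the values did not overlap in 8 of 8 genes under DMSO and in 8 of 8 under JQ1. The shares of all genes were 36.2% and 33.1%, and the high counts follow from the choice. By group mean the order from high to low was MUTZ-5 DMSO, MUTZ-5 JQ1 and then MHH-CALL4 in all 8 genes. The values of the MUTZ-5 groups overlapped in SYCP2, and those of MUTZ-5 JQ1 and MHH-CALL4 DMSO overlapped in CYP26A1. MHH-CALL4 values with JQ1 and with DMSO overlapped in ITGA8, CYP26A1, GJB6, GABRG3 and ALKAL2, so 3 of 8 genes were separated there, beside 43.7% of all genes.

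The size of the line difference depended on which probe sets were summarised. With the extended list ALKAL2 differed by 2.11 log2 under DMSO and 1.15 under JQ1, where the core list gave 6.14 and 4.56. CHI3L2 differed by 2.55 log2 under DMSO and 1.19 under JQ1, where the core list gave 4.83 and 2.94. In GJB6 the difference under JQ1 was 1.09 with the extended list and 1.72 with the core list. CYP26A1 and SYCP2 differed by 2.33 and 5.68 log2 under DMSO with the extended list, where the core list gave 2.47 and 5.94. All 8 stayed higher in MUTZ-5 under DMSO with either list.

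The rule gives no numeric threshold, and other genes lay in the same range. Of all genes 39 had a line difference under DMSO of at least 2.47 log2 and an MHH-CALL4 DMSO level of at most 7.18 log2, and 31 of these are not among the 8. The largest of those 31 line differences were those of FRY (5.77), PTGDR (5.01), ZPBP (4.97), SCN3A (4.88) and APOOL (4.55). In MUTZ-5 their JQ1 minus DMSO differences ran from -1.71 to 0.59 log2 with a median of -0.25, on both sides of 0.

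In MHH-CALL4 the JQ1 minus DMSO differences were small, from -0.46 log2 in CHI3L2 to 0.56 log2 in ALKAL2, with a median of -0.21 log2 beside 0.0065 for all genes. All 8 signals sat in the lower part of the scale in this line, as the choice implies. CHI3L2 averaged 6.72 ± 0.14 with JQ1, against 7.18 ± 0.22 with DMSO (SD, n = 3 each), and with the extended list it differed by -0.029 log2. FYB1 averaged 5.76 ± 0.094 with JQ1, against 6.12 ± 0.11 with DMSO (-0.36 log2), and differed by -0.068 log2 with the extended list. SYCP2 differed by -0.24 log2, and these 3 genes are those whose groups did not overlap in this line.

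ALKAL2 was the one gene with a positive difference, 0.56 log2, with 5.87 ± 0.37 under JQ1 and 5.32 ± 0.40 under DMSO (SD, n = 3 each). With the extended list the difference was 0.087 log2. The other 4 genes differed by -0.21 (ITGA8), -0.094 (CYP26A1), -0.21 (GJB6) and -0.055 log2 (GABRG3). GABRG3 changed sign without single arrays, with values between -0.23 and 0.11.

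The genes that work with ITGA8 split in direction. Of 19 integrin partners measured of 21 listed, 3 rose, 3 fell and 13 did not pass with JQ1 in MUTZ-5, where 9.06% of all genes rose and 13.0% fell (list median 0.031 log2, all genes 0.0084). Decreases made up 58.9% of all calls there, and 48.5% with median centring. ITGB1, the beta-1 chain that ITGA8 needs, rose by 0.37 log2 (limma adjusted p = 0.0094) to 10.95 ± 0.090 with JQ1, against 10.58 ± 0.13 with DMSO. ITGB3, the beta-3 chain of the vitronectin receptor, rose by 0.73 log2 (adjusted p = 6.4e-05), with 8.82, 8.87 and 8.59 with JQ1, against 8.02, 8.03 and 8.05 with DMSO. ITGA5, the fibronectin receptor's alpha chain, fell by 0.61 log2 (adjusted p = 4.7e-05) and its ligand FN1 by 0.90 log2 (0.0040). FERMT3, the kindlin that activates integrins in blood cells, fell by 0.75 log2 (8.3e-06). In MHH-CALL4, 3 partners rose, 2 fell and 14 did not pass (list median 0.069 log2), where 11.0% of all genes rose and 17.5% fell. FERMT3 fell more there, by 1.37 log2 (limma adjusted p = 2.8e-08), and ITGA5 by 0.44 log2 (4.8e-04). ITGB1 (0.25 log2, 0.054), FN1 (-0.44, 0.11) and ITGB3 (-0.067, 0.64) did not pass there.

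Between lines under DMSO, where 23.4% of all genes were called, 11.9% higher in MUTZ-5 and 11.5% lower, 4 integrin partners were higher, 3 lower and 12 not past the test (list median 0.19 log2, all genes 0.028). ITGB3 was higher in MUTZ-5 by 1.06 log2 (limma adjusted p = 9.9e-07), and FERMT3 (-1.44, adjusted p = 4.0e-09) and ITGA5 (-0.53, 9.3e-05) were lower. ITGB1 was higher by 0.29 log2 (adjusted p = 0.033), a call that 6 of 19 alternatives lost. The nephronectin gene NPNT did not pass in any of the 4 comparisons. Under JQ1, where 19.9% of all genes were called between lines (11.7% higher, 8.25% lower), 3 partners were higher in MUTZ-5 and 3 lower, with ITGB3 higher by 1.85 log2 (adjusted p = 3.4e-09). The JQ1 effects themselves differed between lines in 1.53% of all genes (0.949% with a higher value in MUTZ-5, 0.583% with a lower one). ITGB3 (0.80 log2, limma adjusted p = 0.0053) and FERMT3 (0.62 log2, 0.0067) were among them. FERMT3 fell with JQ1 in both lines, by more in MHH-CALL4.

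The retinoic acid pathway around CYP26A1 showed few line differences. Of 21 genes measured of 26 listed, 1 was higher in MUTZ-5 under DMSO, 2 lower and 18 not past the test (list median 0.11 log2). DHRS3, a reductase that limits retinoic acid by turning retinal back into retinol, was higher by 0.98 log2 (limma adjusted p = 9.9e-07). NRIP1, a corepressor of nuclear receptors, was lower by 1.45 log2 (3.8e-09), and the receptor RARA by 0.31 log2 (0.020), a call that 4 of 18 alternatives lost. With JQ1 in MUTZ-5, 1 gene rose, 2 fell and 18 did not pass (list median 0.013 log2). RDH10, which makes retinal and so feeds retinoic acid synthesis, rose by 0.76 log2 (adjusted p = 1.8e-04), while DHRS3 fell by 0.29 log2 (0.023) and the receptor RARG by 0.35 log2 (0.0076). The DHRS3 decrease was lost under 5 of 19 alternatives and the RARG decrease under 1 of 18, the extended list. In MHH-CALL4, 3 rose, 3 fell and 15 did not pass (list median 0.058 log2), where 11.0% of all genes rose and 17.5% fell. RDH10 rose there too, by 0.37 log2 (limma adjusted p = 0.019). DHRS3 fell by 0.57 log2 (2.2e-04), RARG by 0.26 log2 (0.028) and NRIP1 by 0.83 log2 (2.4e-06). The RARG call there was lost under 6 of 18 alternatives and the RDH10 call under 3 of 19. The other retinoic acid hydroxylases did not follow CYP26A1. CYP26C1, its direct neighbour, differed by 0.12 log2 between lines (adjusted p = 0.31) and by 0.019 with JQ1 in MUTZ-5 (0.93). CYP26B1 differed by 0.15 between lines (0.21) and by 0.10 with JQ1 in MUTZ-5 (0.46). In MHH-CALL4 CYP26B1 rose by 0.23 log2 (limma adjusted p = 0.0498), a call that 13 of 18 alternatives lost.

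Among connexins, GJB2 encodes another gap junction subunit of the inner ear and skin and lies next to GJB6 on chromosome 13. It measured 9.36, 9.15 and 9.29 in MUTZ-5 with JQ1, against 11.17, 10.96 and 11.21 with DMSO. In MHH-CALL4 it measured 8.26, 8.30 and 8.37 with JQ1, against 9.56, 9.74 and 9.60 with DMSO. GJB2 thus fell by 1.84 log2 in MUTZ-5 (limma adjusted p = 3.3e-08) and fell by 1.32 log2 in MHH-CALL4 (2.0e-07), and was 1.48 log2 higher in MUTZ-5 than in MHH-CALL4 under DMSO (2.0e-08). The 2 genes are related in sequence, and whether probes of one read the other was not tested.

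Few of the other connexins and pannexins were called with JQ1. Of 16 measured of 20 listed, 2 fell in MUTZ-5, GJB2 and GJA5 (-0.35 log2, limma adjusted p = 0.020, but 0.057 log2 with the extended list, and not called in 4 of 18 alternatives), none rose and 14 did not pass (list median -0.021 log2). In MHH-CALL4, where 28.5% of all genes were called (17.5% lower, 11.0% higher), 1 rose, 2 fell and 13 did not pass (list median 0.10 log2). Decreases made up 61.5% of all calls in that line, and 51.5% with each array centred on its median. GJB7, another connexin, rose there by 0.49 log2 (limma adjusted p = 1.7e-04) to 5.82 ± 0.10 with JQ1, against 5.33 ± 0.030 with DMSO (SD, n = 3 each), and PANX1, a pannexin, fell by 0.30 log2 (0.043), a call that 11 of 19 alternatives lost. Between lines under DMSO 3 were higher, 2 lower and 11 not past the test (list median 0.19 log2). GJC1, a connexin of heart and vessels, ran opposite to GJB6, with means of 7.01 in MUTZ-5 and 10.36 in MHH-CALL4 (-3.35 log2, adjusted p = 5.1e-10).

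**Figure D3:**
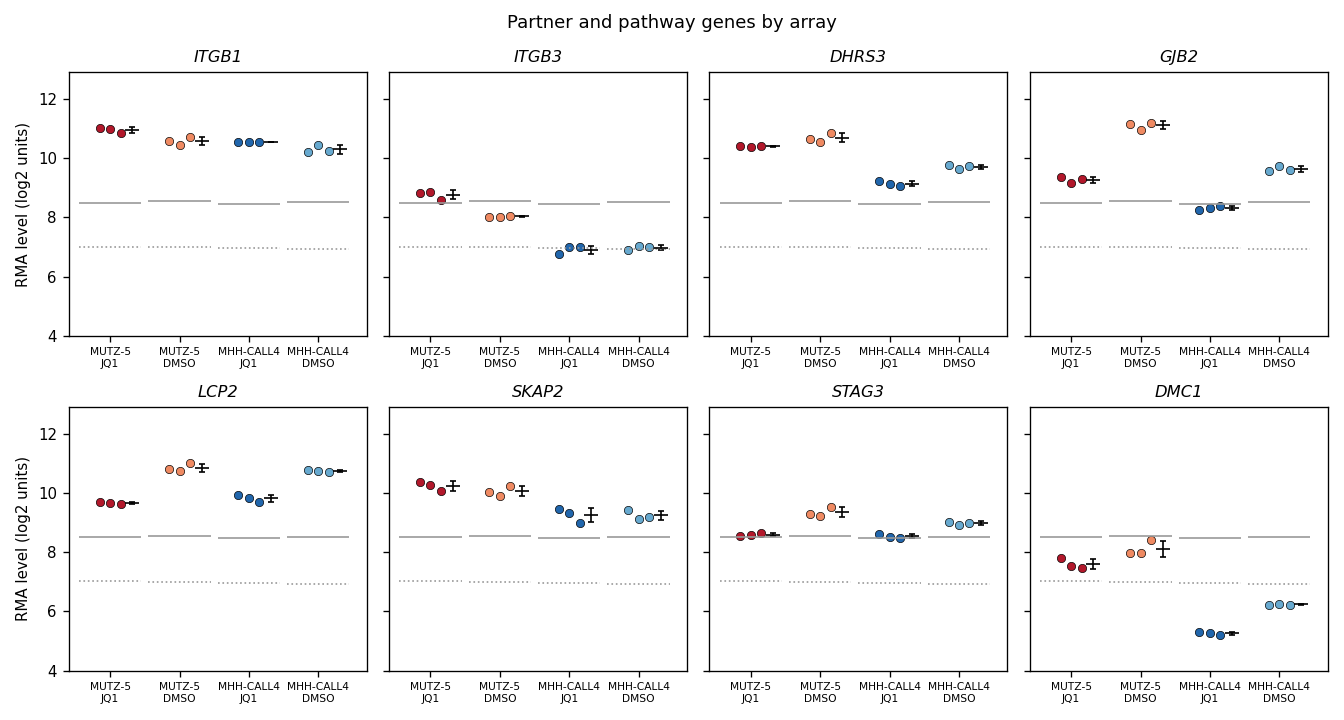
RMA level (log2 units, y axis) of 8 partner or pathway genes in the 12 arrays, by group, drawn as for the 8 restricted genes. GJB2, LCP2 and STAG3 are lower with JQ1 in both lines, ITGB3 is higher with JQ1 in MUTZ-5, and DMC1 is lower in MHH-CALL4 throughout.

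No other GABA-A receptor gene was called with JQ1 in MUTZ-5 or between lines under DMSO. Of 14 measured of 21 listed, limma gave 0 calls in either comparison, 2 genes at an unadjusted p under 0.05 with JQ1 and 5 between lines (list medians 0.084 and 0.062 log2). In each of the 4 groups 12 of the 14 lay below the 25th percentile of all genes. GABRA5, the alpha-5 subunit and the measured gene before GABRG3 on chromosome 15, differed by 0.092 log2 between lines (limma adjusted p = 0.58) and by 0.046 with JQ1 in MUTZ-5 (0.85). In MHH-CALL4 GABRA4 and GABRP rose by 0.35 and 0.29 log2 (limma adjusted p = 0.0057 and 0.023), and 5 of 18 alternatives lost the GABRP call.

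The receptors of ALKAL2 did not pass the test between lines or with JQ1 in MUTZ-5. ALK averaged 7.35 ± 0.17 in MUTZ-5 with JQ1 and 7.25 ± 0.043 with DMSO, and 7.25 ± 0.090 in MHH-CALL4 with JQ1 and 7.05 ± 0.11 with DMSO (SD, n = 3 each), above 27.0% to 30.3% of all genes. LTK averaged 7.50 in MUTZ-5 and 7.57 in MHH-CALL4 under DMSO. Of 10 genes measured of 11 listed, 3 were higher in MUTZ-5 under DMSO, 1 lower and 6 not past the test (list median 0.090 log2). MDK, which encodes the growth factor midkine, was higher by 0.40 log2 (limma adjusted p = 4.8e-04), the adaptors IRS1 and GRB2 by 0.39 and 0.25 log2 (0.0063 and 0.021), and the adaptor SHC1 was lower by 0.42 log2 (8.8e-04). The GRB2 call was lost under 6 of 19 alternatives. With JQ1 in MUTZ-5, MDK was the one gene that fell, by 0.20 log2 (adjusted p = 0.048), and 16 of 19 alternatives lost that call.

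Many partners of FYB1 fell with JQ1 in both lines. Of 18 genes measured of 21 listed, 8 fell, 1 rose and 9 did not pass in MUTZ-5. The counts in MHH-CALL4 were equal (list medians -0.065 and -0.13 log2). Among all genes 13.0% fell and 9.06% rose in MUTZ-5, and 17.5% fell and 11.0% rose in MHH-CALL4. LCP2, the scaffold that FYB1 binds, fell by 1.18 log2 in MUTZ-5 (limma adjusted p = 5.3e-07), with 9.71, 9.67 and 9.64 with JQ1, against 10.83, 10.73 and 11.01 with DMSO. In MHH-CALL4 it fell by 0.92 log2 (adjusted p = 3.8e-06). The chains of the lymphocyte integrin LFA-1 fell too, ITGAL by 1.35 log2 in MUTZ-5 and 1.26 in MHH-CALL4 (adjusted p = 2.5e-07 and 3.3e-07), ITGB2 by 0.99 and 1.21 log2 (9.1e-07 and 1.1e-07). RASSF5, an effector of Rap1 that acts on LFA-1, fell by 0.68 log2 in MUTZ-5 (adjusted p = 1.2e-04). The kinase FYN was the one that rose, by 0.64 log2 in MUTZ-5 and 0.80 log2 in MHH-CALL4 (adjusted p = 4.4e-04 and 5.8e-05).

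Between lines under DMSO, of the 18, 2 were higher in MUTZ-5, 4 lower and 12 not past the test (list median 0.071 log2). PLCG1, the phospholipase downstream of the scaffold, was higher by 1.44 log2 (limma adjusted p = 6.6e-09) and SKAP2, an adaptor that binds FYB1, by 0.81 log2 (3.7e-04). ITGAL was lower by 2.07 log2 (adjusted p = 6.8e-10), and LCP2 differed by 0.12 log2 (0.38).

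The meiotic genes around SYCP2 mostly gave low signals. Of 14 measured of 22 listed, 11 lay below the 25th percentile of all genes in each of the 4 groups. SYCP1, its partner in the synaptonemal complex, averaged 3.90 ± 0.073 in MUTZ-5 with JQ1, 3.79 ± 0.070 in MUTZ-5 with DMSO and 3.79 ± 0.061 in MHH-CALL4 with DMSO, at the bottom of the scale. Under DMSO 2 were higher in MUTZ-5, 2 lower and 10 not past the test (list median -0.063 log2). DMC1, the meiotic recombinase, was higher in MUTZ-5 by 1.88 log2 (limma adjusted p = 3.8e-08), and STAG3, a meiotic cohesin subunit, by 0.37 log2 (0.0062). MEI1, which acts in meiotic break formation, was lower by 1.05 log2 (7.9e-06), but by the extended list it differed by -0.20 log2 and was not called (adjusted p = 0.138). STAG3 and DMC1 fell with JQ1 in MUTZ-5, by 0.75 and 0.52 log2 (adjusted p = 3.6e-05 and 0.0055), and in MHH-CALL4, by 0.44 and 0.97 log2 (0.0017 and 3.9e-05). The other 12 did not pass in MUTZ-5 (list median 0.047 log2).

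In the chitinase family, of 5 genes measured of 6 listed, CHID1, a chitinase-domain protein, fell by 0.26 log2 with JQ1 in MUTZ-5 (limma adjusted p = 0.020), a call that 6 of 19 alternatives lost, and the other 4 did not pass (list median 0.038 log2). In MHH-CALL4, 3 of the 5 rose, 1 fell and 1 did not pass (list median 0.23 log2), where 11.0% of all genes rose and 17.5% fell. CHI3L1, another chitinase-like protein, averaged 7.04 in MUTZ-5 with JQ1 and 6.90 with DMSO. In MHH-CALL4 it rose by 0.35 log2 (limma adjusted p = 0.016), from 6.65 to 7.01. CHIA rose by 0.28 log2 (0.048) and CHIT1 by 0.23 log2 (0.024), calls that 12 and 9 of 18 alternatives lost. CHID1 fell by 0.32 log2 (0.0050). CHI3L1 differed by 0.25 log2 between lines under DMSO (adjusted p = 0.092). CHIT1, an active chitinase, was higher in MUTZ-5 by 0.21 log2 (adjusted p = 0.046), a call that 16 of 18 alternatives lost.

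Markers of other cell types were set beside these genes. Under DMSO limma called 0 of 8 stromal, 7 epithelial, 7 neuronal and 7 germ cell markers between lines, with 1, 1, 2 and 0 at an unadjusted p under 0.05. Each of the 7 germ cell markers lay below the 25th percentile of all genes in all 4 groups. The mean level of the germ cell list ran from 5.15 to 5.25 in the MUTZ-5 arrays with DMSO and from 5.21 to 5.28 in the MHH-CALL4 arrays with DMSO. The neuronal list ran from 6.55 to 6.77 in MUTZ-5 and from 6.58 to 6.65 in MHH-CALL4, and the T and NK cell list from 6.94 to 7.13 in MUTZ-5 and from 7.01 to 7.11 in MHH-CALL4. Of 12 T and NK cell markers 2 were higher and 2 lower in MUTZ-5, beside 11.9% and 11.5% of all genes. In every group 7 of the 12 lay below the 25th percentile. The defining chains CD3D and CD3E and the receptor CD2 averaged 6.32, 5.38 and 6.19 in MUTZ-5 and 6.28, 5.48 and 6.25 in MHH-CALL4 under DMSO. They were named after their values were seen and do not stand for the whole list. The array means of the myeloid list did not overlap between lines under DMSO. They ran from 7.46 to 7.57 in MUTZ-5 and from 7.80 to 7.86 in MHH-CALL4. Of 10 myeloid markers measured of 12 listed, 1 was higher in MUTZ-5 under DMSO, 2 lower and 7 not past the test. The list median was -0.038 log2, and 23.4% of all genes were called. The lower markers were the granule enzyme genes MPO (8.19 in MUTZ-5 and 10.51 in MHH-CALL4) and LYZ (5.58 and 6.63). The higher one was the protease inhibitor gene CST3 (0.46 log2, limma adjusted p = 0.0035). Of 6 erythroid and megakaryocyte markers limma called 0 between lines, with 0 at an unadjusted p under 0.05. The kinases LCK and ZAP70, known from T cells, gave signals above the median of all genes in both lines under DMSO (ZAP70 averaged 9.61 in MUTZ-5 and 9.33 in MHH-CALL4) and fell with JQ1 in both, by 1.38 and 1.12 log2 in MUTZ-5 (limma adjusted p = 8.6e-07 and 7.7e-07). The part of other cells in the signals of the 8 genes was not tested.

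**Figure D4:**
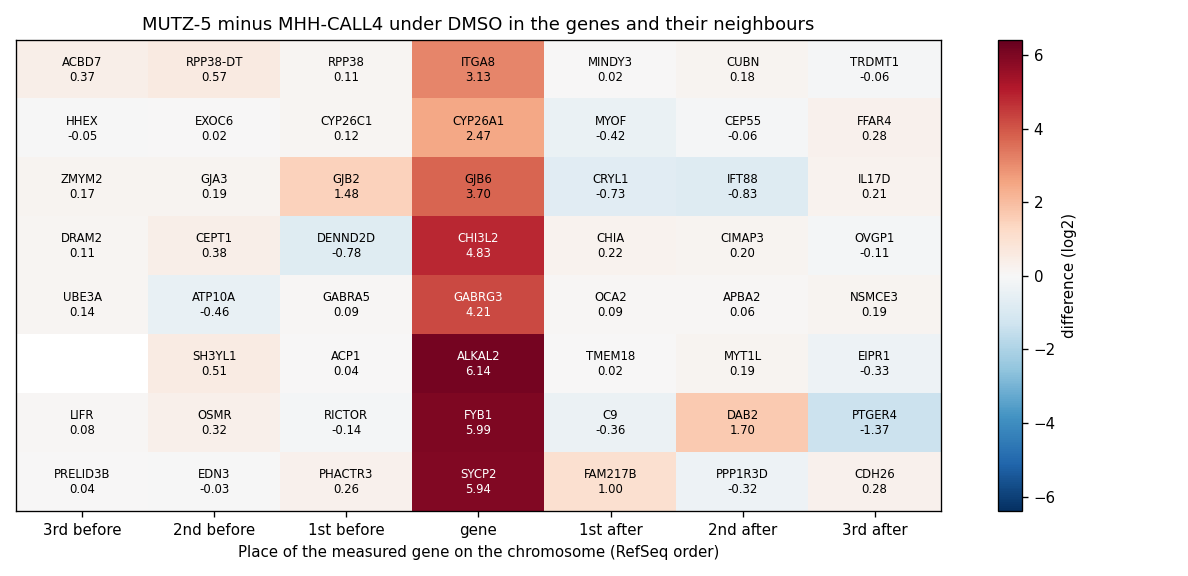
MUTZ-5 minus MHH-CALL4 difference under DMSO (log2, colour and printed value) of each of the 8 genes and of the nearest measured genes on either side, up to 3 each, in RefSeq order. The 8 genes form the dark column, and GJB2, DAB2 and FAM217B are the neighbours at 1.00 or above.

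Around these 8 genes on the chromosomes, calls between lines under DMSO were more frequent, in both directions, than among all genes. Of 47 measured neighbours, up to 3 on each side, 9 were higher in MUTZ-5 under DMSO, 8 lower and 30 not past the test, beside 11.9% higher and 11.5% lower among all genes. Their median difference was 0.092 log2, and 3 of the 47 were at least 2-fold higher, beside 1.97% of all genes. Besides GJB2, only DAB2, an endocytic adaptor near FYB1 (1.70 log2, limma adjusted p = 1.4e-06, and 0.92 log2 with the extended list), and FAM217B, directly after SYCP2 (1.00 log2, 1.5e-06), were at least 2-fold higher. PTGER4, a prostaglandin receptor gene also near FYB1, was lower by 1.37 log2 (6.3e-08). Direct neighbours called lower were DENND2D, before CHI3L2 (-0.78 log2, limma adjusted p = 6.8e-05), CRYL1, after GJB6 (-0.73, 1.7e-04), and MYOF, after CYP26A1 (-0.42, 0.0012). The direct neighbours RICTOR and C9 of FYB1 did not pass under DMSO, nor did those of ITGA8 (RPP38 and MINDY3), GABRG3 (GABRA5 and OCA2) and ALKAL2 (ACP1 and TMEM18).

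With JQ1 in MUTZ-5, 5 neighbours rose, 8 fell and 34 did not pass (median -0.014 log2), where 9.06% of all genes rose and 13.0% fell. At least 2-fold lower were 3 of the 47, beside 1.23% of all genes. C9, a complement gene next to FYB1, rose by 0.77 log2 (limma adjusted p = 0.0065), to 4.75 ± 0.32 with JQ1, against 3.98 ± 0.22 with DMSO. Both means lay below the 5th percentile of all genes (5.08 and 5.06), where array signals are known to flatten. RPP38, a ribonuclease P subunit gene next to ITGA8, fell by 0.44 log2 (limma adjusted p = 0.0049). Besides GJB2, at least 2-fold decreases were those of DENND2D, before CHI3L2 (-1.20 log2, limma adjusted p = 2.9e-06), and SH3YL1, near ALKAL2 (-1.03 log2, 9.9e-05). Both also fell in MHH-CALL4, by 1.35 and 0.91 log2 (adjusted p = 7.8e-07 and 2.1e-04), where CHI3L2 and ALKAL2 differed by -0.46 and 0.56 log2. ACBD7, near ITGA8, rose in both lines, by 1.09 log2 in MUTZ-5 and 1.44 log2 in MHH-CALL4 (3.6e-05 and 2.2e-06).

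The genes whose values ran most like each member over the 12 arrays were found by Pearson's r, as a description. The arrays are shared and fall into 4 groups, so r mostly follows the group means. For ITGA8 these were ANO1 (0.996), LRRC34 and ST14, and for CYP26A1 ANO1 (0.992), ASIC1 and KCNJ16. GJB6 ran with MYL4 (0.986), NCS1 and CD226, CHI3L2 with SCN4A (0.996), LZTS1 and DKK1, and GABRG3 with DKK1 (0.994), C1R and KIRREL2. ALKAL2 ran with CRMP1 (0.993), ZPBP and DSG2, FYB1 with CALD1 (0.998), PTGDR and CLIC5, and SYCP2 with PIP5K1B (0.999), FRY and SCN3A. Between the 8 genes themselves r lay between 0.675, for CYP26A1 and SYCP2, and 0.995, for FYB1 and SYCP2 and for ITGA8 and CYP26A1.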

How the data were processed

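RNA of 12 samples was measured on 1 Affymetrix exon array each. The deposited values are log2 signals that the authors made by RMA in Affymetrix Expression Console, per the labels and the submitters' processing notes, for a core and an extended probe set list (24 columns of 12 arrays). The log2 scale was inferred from the values. The program's version, the build and which arrays were normalized together are not given in the sources used here, and the files used give no detection calls.

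Of 22011 core clusters, 14432 carry 1 gene symbol in the platform annotation supplied with the series, 2408 carry several and 5171 are not annotated there. For the 197 genes with several clusters the one with the highest mean was used, which left 14232 genes. No filter was applied. In R 4.3.3, limma 3.58.1 (lmFit, eBayes) estimated the 4 group means from the core values, with two-sided tests and Benjamini-Hochberg adjustment over all genes, and a gene was called at an adjusted p under 0.05. The difference of JQ1 effects between lines was added to the planned contrasts. The fit was tested on simulated data.

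The members, gene lists and tests were chosen with earlier results of these data known. A test of the members in MHH-CALL4 was planned but is not given, since the choice used their level in that line. Named genes are the 8 members, fixed partners, and from each pathway list up to 4 called genes with the largest JQ1 difference in MUTZ-5 and up to 3 with the largest line difference under DMSO. Further ones are called or direct chromosome neighbours, the 3 genes most like each member over the arrays, the 3 highest genes of each marker list, and MYC and HEXIM1. GRB2, FYN, GABRA4, GABRP, GJB7, PANX1, MPO, LYZ, CD79A, PAX5, CD3D, CD3E, CD2 and APOOL were named after their values were seen. Alternatives were the extended list, median centring, cyclic loess, a level filter, single arrays left out, a replicate block, another spread estimate and fits of 6 arrays. Same-numbered JQ1 and DMSO arrays deviated with correlations of -0.17, -0.21 and -0.44 in MUTZ-5 and 0.30, 0.070 and 0.23 in MHH-CALL4, so the numbers were not taken as pairs.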

Additional observations from a re-analysis of the deposited data

Results flagged for a closer look

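The effect of JQ1 differed between the lines in 8 of 225 genes examined outside the 8 members, by the test of the difference itself in limma (MUTZ-5 minus MHH-CALL4), where 1.53% of all genes were called. Among partners of ITGA8, ITGB3 differed by 0.80 log2 (adjusted p = 0.0053) and FERMT3 by 0.62 log2 (0.0067). FERMT3 fell in both lines, by more in MHH-CALL4. The retinoic acid list held NRIP1 at 0.72 log2 (adjusted p = 0.0022). NRIP1 fell in MHH-CALL4 and did not pass in MUTZ-5. Connexins GJA5 and GJB7 differed by -0.61 and -0.56 log2 (adjusted p = 0.048 and 0.011). The myeloid markers MPO and LYZ differed by 1.99 and 1.03 log2 (adjusted p = 6.2e-06 and 0.0032). MYC, which encodes a growth-driving transcription factor, differed by 0.73 log2 (adjusted p = 0.0011), with decreases in both lines.

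ALKAL2 is flagged for direction, not for size. Its 3 MUTZ-5 JQ1 values lay below the MUTZ-5 DMSO mean and its MHH-CALL4 JQ1 values above the MHH-CALL4 DMSO mean. Its JQ1 response differed by -1.58 log2 between the lines. The difference was larger in ITGA8 (-2.43), CYP26A1 (-2.13), GJB6 (-1.98), CHI3L2 (-1.89) and GABRG3 (-1.79). It was smaller in FYB1 (-0.49) and SYCP2 (0.12). In MHH-CALL4 under DMSO ALKAL2 lay above only 6.90% of all genes. These differences were not tested, since values of both lines were used to pick the genes. The MHH-CALL4 JQ1 and DMSO values of ALKAL2 overlapped, and with the extended list they differed by 0.087 log2.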

How the results depend on the processing

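Counts of called genes stayed within 1.5 times the reported ones under all 19 alternatives. With single arrays left out they ran from 2947 to 4575 for JQ1 in MHH-CALL4 (4057 reported), 2310 to 3265 in MUTZ-5 (3138), 2640 to 3699 between lines under DMSO (3330) and 2278 to 3183 under JQ1 (2836). With the replicate number as a block, 3415 genes were called for JQ1 in MHH-CALL4, 2598 in MUTZ-5, 2840 between lines under DMSO and 2424 under JQ1. Median centring moved the share of decreases among calls from 61.5% to 51.5% in MHH-CALL4 and from 58.9% to 48.5% in MUTZ-5. Of 171 calls of partner and neighbour genes over the 4 comparisons, 117 held under each alternative, 54 were lost in at least 1, and GJA5 changed sign in MUTZ-5 with the extended list (0.057 log2). GABRG3 in MHH-CALL4 ran from -0.23 to 0.11 with single arrays left out. The cause of these changes was not tested. The alternative of a next highest cluster was not run, since each member has 1 core cluster. Signal over background is not known, which limits the values at the low end of the scale.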
